A study of Homo sapiens with 8 samples.

Results

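The 10 genes RB1, RBL1, RBL2, LIN9, LIN37, LIN54, MYB, MYBL1, MYBL2 and FOXM1 encode the RB family, part of the MuvB core, the MYB family and FOXM1. They were taken by symbol from the 25369 genes listed, and all 10 were among the 15879 genes with enough reads to be tested. Poly(A) RNA was measured in CHP212, a human neuroblastoma cell line, either unmodified (WT) or with FAM193A knocked out (KO). Each genotype received either Nutlin-3a at 10 uM or DMSO vehicle at 0.2%, for 12 h. Each of the 4 resulting groups has 2 libraries, labelled as biologically independent. A single KO population is named, so the lost gene and any other property of that population cannot be told apart.

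The RB family proteins (RB1, p107 from RBL1 and p130 from RBL2) hold E2F transcription factors at cell cycle promoters until cyclin-dependent kinases phosphorylate them. In resting or arrested cells, p130 or p107 joins E2F4 or E2F5, a DP partner and the MuvB core (LIN9, LIN37, LIN52, LIN54 and RBBP4) in the repressive DREAM complex, which p53 engages through the kinase inhibitor p21. In cycling cells the same core leaves the pocket proteins, binds B-MYB from MYBL2 to form the MMB complex, and then recruits FOXM1 to switch on genes of mitosis. Nutlin-3a blocks MDM2, the ubiquitin ligase that degrades p53.

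Several of these genes carry at their own promoters the letters that DREAM and E2F factors read, so the promoters of the 4 genes with an E2F word, all of which fell with Nutlin-3a, and of RBL2, which rose in WT cells, are printed here. Of the 10 members, 8 had an entry in the RefSeq promoter table (build GRCh38.p14), which covers 250 bases before to 50 after a transcription start, and 7 were searched. The only RB1 entry lies far inside the gene, and FOXM1 and MYBL1 had none. On both strands the search used the E2F words TTTCCCGC, TTTGGCGC, TTTGCCGC, TTTCGCGC, TTCCCGCC, TTGGCGGG, TTGGCGCC and TTCGCGCC, some of which overlap one another, and the cell cycle homology region (CHR) words TTTGAA and TTTAAA. Each line gives the 150 bases before the start, 5′ to 3′, with these words in capitals.
MYBL2, chr20:43666964-43667113, plus strand: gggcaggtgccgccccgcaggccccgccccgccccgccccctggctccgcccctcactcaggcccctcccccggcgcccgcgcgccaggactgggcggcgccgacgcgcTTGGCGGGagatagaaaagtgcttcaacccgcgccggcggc
MYB, chr6:135181158-135181307, plus strand: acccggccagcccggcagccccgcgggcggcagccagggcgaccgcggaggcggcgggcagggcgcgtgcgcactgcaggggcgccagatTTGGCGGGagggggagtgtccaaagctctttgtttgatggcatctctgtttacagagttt
RBL1, chr20:37095998-37096147, minus strand: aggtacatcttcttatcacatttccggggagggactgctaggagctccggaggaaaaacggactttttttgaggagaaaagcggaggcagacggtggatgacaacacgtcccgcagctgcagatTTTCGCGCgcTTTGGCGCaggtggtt
LIN54, chr4:83010824-83010973, minus strand: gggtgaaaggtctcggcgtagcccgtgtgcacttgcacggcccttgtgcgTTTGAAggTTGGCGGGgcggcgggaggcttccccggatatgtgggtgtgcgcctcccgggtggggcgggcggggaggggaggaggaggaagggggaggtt
RBL2, chr16:53434321-53434470, plus strand: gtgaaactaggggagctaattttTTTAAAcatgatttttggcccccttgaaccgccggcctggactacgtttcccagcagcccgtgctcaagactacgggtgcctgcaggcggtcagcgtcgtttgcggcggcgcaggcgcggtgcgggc

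MYBL2 held TTGGCGGG from -41 to -34 and MYB the same word from -60 to -53, counted from the base before the start as -1. RBL1 held TTTCGCGC from -26 to -19 and TTTGGCGC from -16 to -9. LIN54, whose protein binds CHR elements, held TTTGAA from -100 to -95 and TTGGCGGG from -92 to -85, at a start that lies 2118 bases inside the annotated gene. RBL2 held CHR words only, at 3 places in the 300-base window of its first start and 1 place at its other start. LIN9, which also fell with Nutlin-3a, and LIN37 held no E2F word, and each held 1 CHR word at one of their starts. An E2F word was present in 7.88% and a CHR word in 24% of all 35116 windows, so a CHR word alone is common. A match is a description of letters, not of a bound site.

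In vehicle-treated WT cells MYBL2 and FOXM1 stood highest and MYB lowest. By RPKM, a level per gene length and depth, the order in WT DMSO cells was MYBL2 (60.4 ± 0.60, SD, n = 2), FOXM1 (44.7 ± 0.83), RBL2 (25.0 ± 0.81), RB1 (23.7 ± 0.30), LIN9 (8.84 ± 0.033), RBL1 (7.85 ± 0.24), MYBL1 (5.67 ± 0.035), LIN54 (4.61 ± 0.34), LIN37 (4.47 ± 0.049) and MYB (2.48 ± 0.16). LIN54 and LIN37 overlapped between replicates, and every other neighbouring pair in that order did not. The order changed under Nutlin-3a, where RBL2 and RB1 were the highest of the 10 genes in WT cells.

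Library totals ran from 28390405 to 38010075 reads. FAM193A itself was read in every library, at 6.27 to 9.40 RPKM, and with DMSO it was lower in the KO libraries (log2 fold change -0.33, SE 0.076, adjusted p = 0.000999 by edgeR), so its transcript level alone does not show the knockout. CDKN1A, the gene for p21, was at 18.5 to 26.8 RPKM in the DMSO libraries and at 649 to 1150 in the Nutlin-3a libraries. The neuroblastoma marker HAND2 was at 239 or more RPKM in every library, whereas DBH had group means of 0.178 and 0.224 in WT cells and of 11.3 and 12.0 in KO cells. Of the markers of other cell types, the 4 fibroblast genes differed, with COL1A1 reaching 860, LUM 171, DCN 14.4 and COL1A2 1.69 RPKM, and all blood, epithelial, endothelial and liver markers stayed at or under 1.42. Genes with at least 30 reads in a library and more than 5 times the reads of its replicate numbered 14 in WT DMSO replicate 2, 37 in WT Nutlin-3a replicate 1, 10 in KO Nutlin-3a replicate 2, and 4 or fewer in each other library. None of these was one of the 10 genes or of the 7 partner genes described further on.

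**Figure D1:**
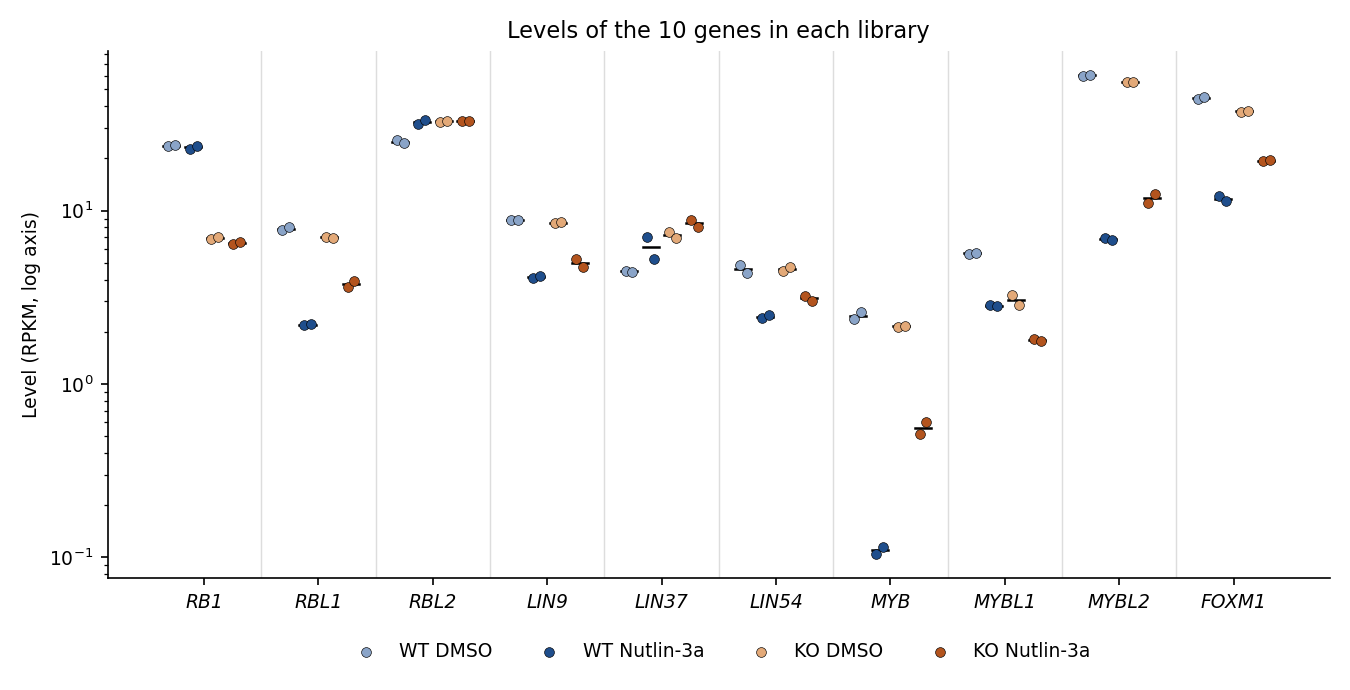
Level of each gene in each library, in RPKM on a log axis, with 2 libraries a group as points and the group mean as a bar. MYBL2, MYB, FOXM1 and RBL1 drop under Nutlin-3a in both genotypes, less far in KO cells, and RB1 is low in all 4 KO libraries.

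What MDM2 inhibition did to the transcripts of these genes was read first in WT cells. The activator genes MYBL2, MYB and FOXM1 and the pocket gene RBL1 fell by the widest margins, the core genes LIN9 and LIN54 and the MYB relative MYBL1 fell about as much as one another, RBL2 and LIN37 rose, and RB1 was not called. Of the 10 genes 7 were lower and 2 higher, where 29.2% of all tested genes were lower and 29.4% higher at the same threshold (58.6% in either direction). Their median log2 fold change was -1.05, against 0.017 over all tested genes. In RNA from a whole culture, fewer cells that express a gene and less of its RNA per cell cannot be told apart.

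MYBL2, which encodes B-MYB, was at 60.0 and 60.8 RPKM in WT DMSO replicates 1 and 2 and at 6.91 and 6.75 in WT Nutlin-3a. Both treated libraries lay far below both controls, and the fitted fall was 8.87-fold (log2 fold change -3.15, SE 0.06, adjusted p = 7.2e-18 by edgeR). MYB, which encodes the founding member of that family and is best known from blood progenitors, had 272 and 280 reads in WT DMSO libraries and 12 in each WT Nutlin-3a library. In RPKM this was 2.37 and 2.59 against 0.104 and 0.115, a fall of 22.5-fold (-4.49, SE 0.21, adjusted p = 1.3e-12). MYBL1, which encodes A-MYB, fell from 5.65 and 5.70 to 2.84 and 2.82 RPKM (-1.01, SE 0.08, adjusted p = 6.1e-09). Summed over the 3 MYB genes, the level was 68.0 and 69.1 RPKM under DMSO and 9.85 and 9.69 under Nutlin-3a, and the MYBL2 share of that sum was 88.2% and 88.0% before and 70.2% and 69.7% after treatment.

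FOXM1, the forkhead factor that MMB brings to genes of mitosis, was at 44.1 and 45.3 RPKM in WT DMSO and at 12.2 and 11.3 in WT Nutlin-3a libraries. The fall was 3.82-fold with no overlap (-1.93, SE 0.05, adjusted p = 4.8e-16). FOXM1 overlaps RHNO1 and ITFG2 in RefSeq, and no source used here states whether counting used strand, so reads of these genes could be shared or lost.

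The pocket genes went 3 ways. RBL1, the gene for p107, fell from 7.68 and 8.02 to 2.18 and 2.21 RPKM (-1.84, SE 0.07, adjusted p = 1.1e-13). RBL2, the gene for p130, rose from 25.6 and 24.5 to 31.6 and 33.4 RPKM (0.37, SE 0.05, adjusted p = 1.3e-06), and AKTIP overlaps it in the annotation. RB1 was at 23.5 and 23.9 RPKM under DMSO and at 22.6 and 23.7 under Nutlin-3a, with overlapping groups (-0.037, 95% interval -0.14 to 0.064, adjusted p = 0.528).

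Among the MuvB genes, LIN9, which encodes the scaffold of the core, fell from 8.87 and 8.82 to 4.10 and 4.19 RPKM (-1.10, SE 0.08, adjusted p = 5.4e-10). LIN54 fell from 4.86 and 4.37 to 2.39 and 2.50 RPKM (-0.92, SE 0.08, adjusted p = 1.1e-08). LIN37, which DREAM needs to repress its targets, rose from 4.51 and 4.44 to 7.04 and 5.27 RPKM (0.46, SE 0.15, adjusted p = 0.0116). The 2 treated LIN37 libraries lay wide apart, with 253 and 172 reads, and leaving out WT Nutlin-3a replicate 1 (0.25, adjusted p = 0.206) or WT DMSO replicate 2 (0.45, adjusted p = 0.0598) ended the call, as did leaving out together the 3 libraries with 10 or more genes over 5 times their replicate (0.24, adjusted p = 0.304).

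**Figure D2:**
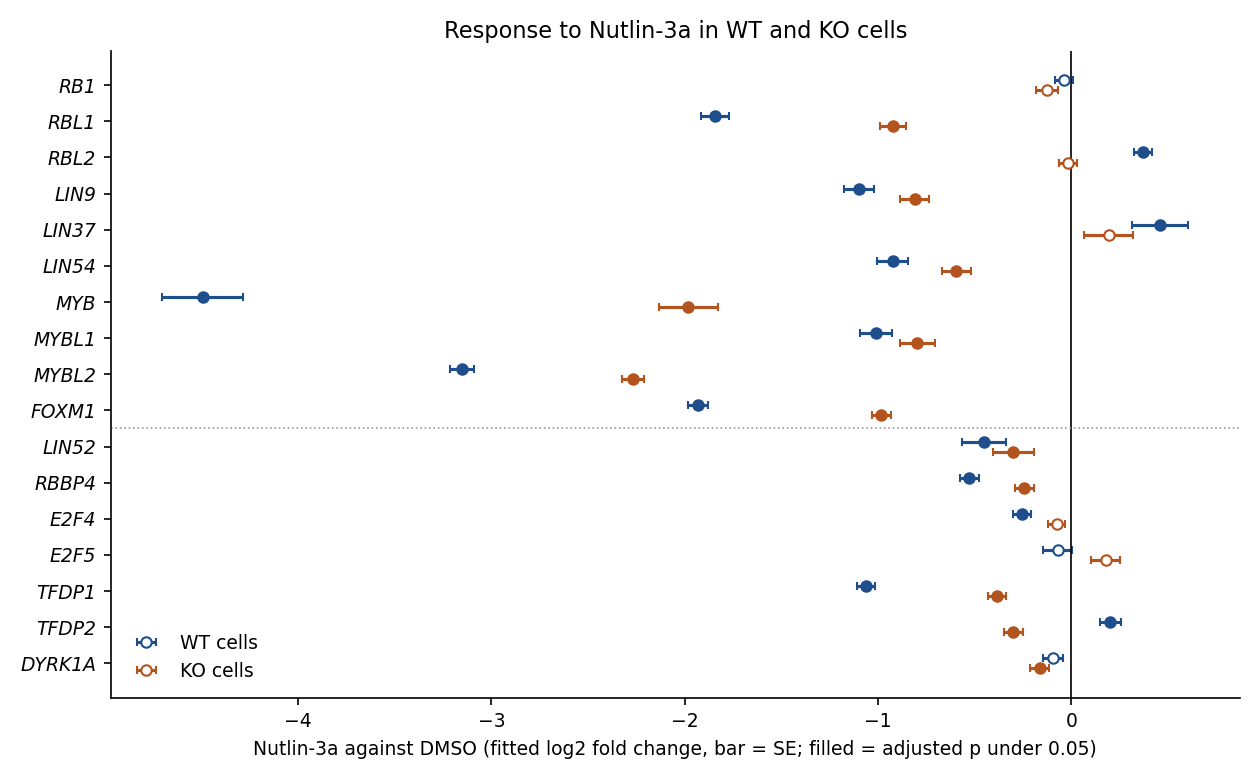
Fitted log2 fold change of Nutlin-3a against DMSO for the 10 genes (above the dotted line) and 7 partner genes (below it), in WT and KO cells, with the SE as bars and filled points at an adjusted p under 0.05. For the 7 genes that fell in both genotypes the KO value lies nearer 0 than the WT value, a difference called for 5 of them, and RBL2 rises in WT cells alone at this threshold, with an interaction of -0.39.

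In KO cells Nutlin-3a lowered the same 7 genes and raised none. MYBL2, MYB, FOXM1, RBL1, LIN9, LIN54 and MYBL1 fell, and RB1, RBL2 and LIN37 were not called. Over all tested genes 20.6% were lower and 18.1% higher (38.7% in either direction), and the median log2 fold change of the 10 genes was -0.80 against -0.0057 over all. The WT and KO responses compare different libraries. All libraries were scaled and fitted together, however, so the calls of each response also depend on libraries of the other genotype.

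MYBL2 was at 55.2 and 55.5 RPKM in KO DMSO and at 11.1 and 12.5 in KO Nutlin-3a libraries, a fall of 4.81-fold (-2.27, SE 0.06, adjusted p = 6.4e-16). MYB went from 276 and 303 reads to 67 and 71, or from 2.13 and 2.17 to 0.516 and 0.600 RPKM (-1.98, SE 0.15, adjusted p = 4.5e-09). Both KO Nutlin-3a libraries held more than 4 times the MYB level of either WT Nutlin-3a library. FOXM1 fell from 37.3 and 37.7 to 19.4 and 19.5 RPKM (-0.98, SE 0.05, adjusted p = 1.0e-11). RBL1 fell from 7.07 and 6.96 to 3.64 and 3.93 RPKM (-0.92, SE 0.07, adjusted p = 2.1e-09). The treated KO libraries of these 4 genes all lay above the treated WT libraries and below the DMSO libraries of either genotype.

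LIN9 fell from 8.47 and 8.62 to 5.24 and 4.72 RPKM (-0.81, SE 0.07), LIN54 from 4.48 and 4.74 to 3.22 and 3.03 (-0.59, SE 0.08), and MYBL1 from 3.24 and 2.87 to 1.82 and 1.77 (-0.80, SE 0.09), with adjusted p by edgeR from 5.4e-08 to 4.6e-06. RBL2 was at 32.5 and 32.9 RPKM under DMSO and at 33.0 and 33.1 under Nutlin-3a (-0.017, 95% interval -0.11 to 0.078, adjusted p = 0.801). Its KO level before treatment was thus near the level that WT cells had after it. LIN37 was at 7.53 and 6.91 RPKM and then at 8.84 and 8.03 (0.19, 95% interval -0.075 to 0.46, adjusted p = 0.252). RB1 was at 6.87 and 7.03 and then at 6.44 and 6.59 RPKM (-0.13, 95% interval -0.24 to -0.0093, adjusted p = 0.0833), and passed without WT Nutlin-3a replicate 2 (-0.13, adjusted p = 0.043).

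Whether the responses differed was tested directly as KO response minus WT response. The falls of MYB (2.51, SE 0.30, adjusted p = 4.7e-06), FOXM1 (0.95, SE 0.07, adjusted p = 2.5e-08), RBL1 (0.92, SE 0.10, adjusted p = 1.9e-06) and MYBL2 (0.88, SE 0.08, adjusted p = 4.2e-07) were smaller in KO cells. In ratios, the part of each transcript left after Nutlin-3a in WT and KO cells was 4.44% and 25.3% for MYB, 11.3% and 20.8% for MYBL2, 26.2% and 50.6% for FOXM1, and 27.8% and 52.7% for RBL1. The size of the MYB values rests on low levels, and with limma-trend on log2(RPKM + 1) its interaction was 0.63 (adjusted p = 0.00184). The rise of RBL2 was smaller in KO cells (-0.39, SE 0.06, adjusted p = 0.000184).

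LIN54 also differed (0.33, SE 0.11, adjusted p = 0.0341), although its call was lost in 6 of 8 fits that left out 1 library, every one except those without WT DMSO replicate 2 and WT Nutlin-3a replicate 2, at adjusted p up to 0.170. The other 4 genes were not called, with differences of 0.29 for LIN9 (95% interval 0.063 to 0.51, adjusted p = 0.0534), 0.21 for MYBL1 (-0.049 to 0.47), -0.27 for LIN37 (-0.67 to 0.14) and -0.089 for RB1 (-0.24 to 0.065). LIN9 passed without KO Nutlin-3a replicate 2 (0.35, adjusted p = 0.0405). In all 5 of the 10 genes were called higher and 1 lower, where 14.2% and 13.4% of all tested genes were (27.5% in either direction).

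How the genotypes differed before p53 was activated was read from the DMSO libraries. RB1 and MYBL1 stood out as lower in KO cells, RBL2 and LIN37 were higher, and FOXM1, MYBL2 and RBL1 were lower by small margins. Of the 10 genes 5 were lower and 2 higher, where 30.1% of all tested genes were lower and 31.4% higher (61.5% in either direction). The 7 genes called are near that background share.

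RB1 was at 23.5 and 23.9 RPKM in WT DMSO and at 6.87 and 7.03 in KO DMSO libraries, 3.56-fold lower (-1.83, SE 0.05, adjusted p = 9.2e-16). Under Nutlin-3a it was 3.79-fold lower (-1.92, SE 0.05, adjusted p = 5.6e-16), and no KO library came near any WT library. MYBL1 was 1.94-fold lower under DMSO (-0.96, SE 0.08, adjusted p = 8.7e-09) and 1.68-fold lower under Nutlin-3a (-0.75, SE 0.09, adjusted p = 1.3e-06). RBL2 was higher by 0.32 (SE 0.05, adjusted p = 7.2e-06) and LIN37 by 0.63 (SE 0.14, adjusted p = 0.000820) under DMSO. AKTIP, which overlaps RBL2, was higher too (0.77, SE 0.07, adjusted p = 3.6e-08 by edgeR), and its part in the RBL2 difference was not tested. FOXM1 (log2 fold change -0.32, SE 0.05, adjusted p = 1.3e-05), RBL1 (-0.23, SE 0.06, adjusted p = 0.00456) and MYBL2 (-0.19, SE 0.05, adjusted p = 0.00346) were lower. The calls of RBL1 and MYBL2 were lost with limma-trend on RPKM, at adjusted p from 0.0512 to 0.193, and that of RBL1 also without WT DMSO replicate 2 (-0.19, adjusted p = 0.0599). MYB (-0.27, 95% interval -0.53 to -0.0063, adjusted p = 0.0704), LIN9 (-0.11, -0.26 to 0.035) and LIN54 (-0.065, -0.22 to 0.090) were not called, and MYB passed without WT Nutlin-3a replicate 1 or 2 (adjusted p = 0.048 and 0.0487).

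RB1 lies on chromosome 13, and so does the DP partner gene TFDP1. Most tested genes that RefSeq places on that chromosome were lower in KO cells, a grouping chosen after its values were seen. Under DMSO 180 of 223 were lower and 16 higher, or 80.7% lower, with a median log2 fold change of -0.87, against 32.1% lower and a median of 0.0035 over the 12468 tested genes of the other autosomes. The lowest median of another autosome was -0.072, on chromosome 21. RB1 was 0.96 further down than the chromosome 13 median, and 19 of the 223 genes were lower still. Of the 5 tested protein-coding genes on either side of RB1, 7 were lower and 1 higher, as for SUCLA2 (-1.07, SE 0.05), MED4 (-0.93, SE 0.06) and ITM2B (-0.45, SE 0.05). LPAR6, which lies inside RB1, was the higher one and had 77 reads over all libraries. The responses to Nutlin-3a on that chromosome had medians of -0.061 in WT and -0.030 in KO cells. The tested neighbours of MYBL1, the other gene that was clearly lower in KO cells, had a median of -0.048, with 3 lower and 1 higher. The part of the chromosome-wide shift in the RB1 difference was not tested.

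**Figure D3:**
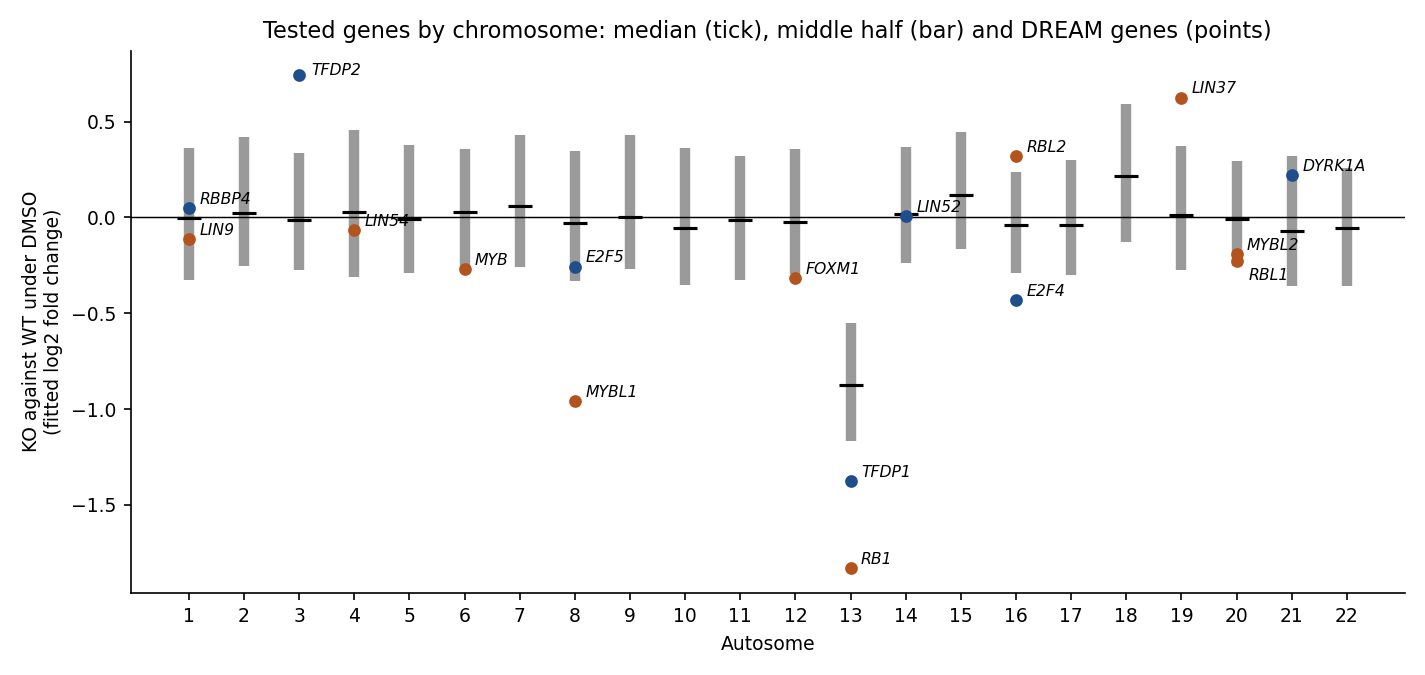
Fitted log2 fold change of KO against WT under DMSO by autosome, with the median of all tested genes as a tick, the lower to upper quartile as a bar, the 10 genes as orange points and the 7 partner genes as blue points. Chromosome 13 has a median of -0.87, and RB1 and TFDP1 both lie below its lower quartile.

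CDKN2A, which encodes the CDK4 and CDK6 inhibitor p16 and the MDM2 inhibitor p14ARF, was chosen after its values were seen. It was at 0.231 and 0.311 RPKM in WT DMSO and at 14.1 and 14.9 in KO DMSO libraries (5.68, SE 0.15, adjusted p = 2.9e-16), and under Nutlin-3a at 0.493 and 0.576 against 15.3 and 14.1. The libraries with low RB1 were thus those with high CDKN2A, which is a description of 2 genotypes and no relation across samples. CDKN2A had 15 to 34 reads in the WT libraries, so the size of its difference rests on few reads.

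The same RPKM values give the makeup of the RB family in each library, as a description for which no test was run. RB1 made up 41.3% and 42.4% of the summed level of the 3 genes in WT cells with DMSO, 40.1% and 40.0% with Nutlin-3a there, and, in KO cells, 14.8% and 15.0% with DMSO against 15.0% and 15.1% with Nutlin-3a. RBL2 made up 45.1% and 43.4%, 56.0% and 56.3%, 70.0% and 70.2%, and 76.6% and 75.9% in the same order. It thus had the largest share in every library, by a small margin in WT cells with DMSO. RBL1 made up 13.5% and 14.2%, 3.87% and 3.73%, 15.2% and 14.8%, and 8.45% and 9.02%. The sum in WT cells was 56.5 ± 0.28 RPKM (SD, n = 2) before and 57.9 ± 2.09 after Nutlin-3a, and in KO cells it was 46.6 ± 0.34 before and 43.3 ± 0.35 after. Transcript levels do not give protein levels or phosphorylation, which set the activity of this family.

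**Figure D4:**
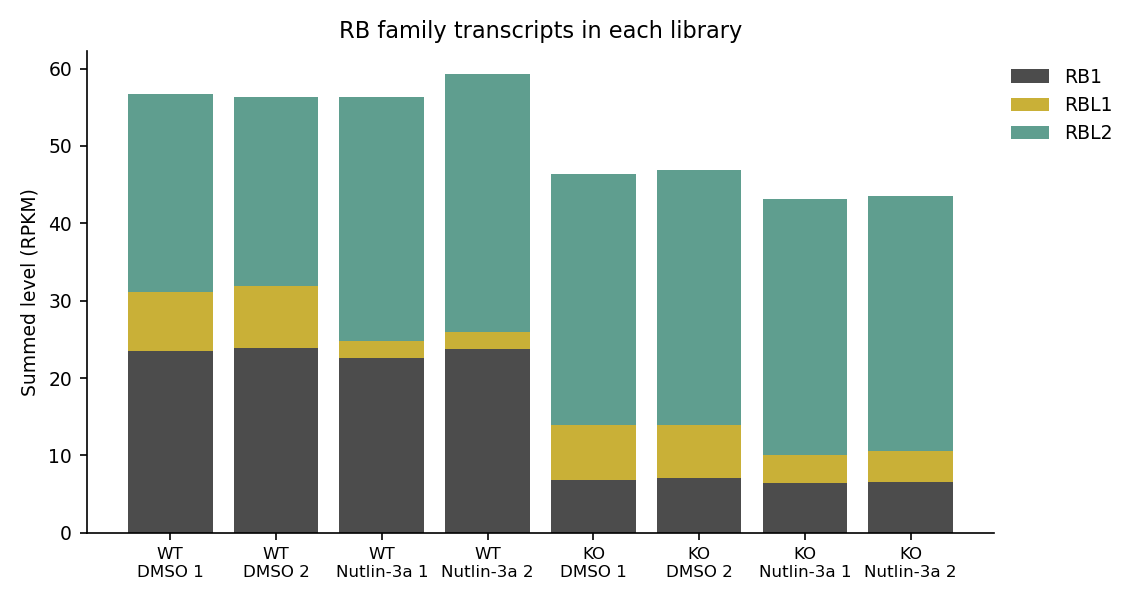
Summed RPKM of RB1, RBL1 and RBL2 in each of the 8 libraries, stacked from 0. RB1 (bottom) is small in all 4 KO libraries, and RBL1 (middle) shrinks under Nutlin-3a in both genotypes.

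The RBL2 to MYBL2 ratio sets the gene for the main DREAM pocket protein against that for the MMB activator. It was 0.427 and 0.402 in WT DMSO and 4.57 and 4.95 in WT Nutlin-3a libraries. In KO cells it was 0.588 and 0.593 and then 2.98 and 2.65. It turned from below 1 to above 1 in both genotypes, started higher in KO cells and ended lower there. In KO cells mean RBL2 was 32.7 RPKM before and 33.0 after Nutlin-3a, so the change there follows the MYBL2 fall. In WT cells too MYBL2 changed by more than RBL2. A ratio of 2 transcripts does not give the balance of the complexes.

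How far apart the genotypes stood once p53 was active was read from the Nutlin-3a libraries. The transcripts that Nutlin-3a had lowered most in WT cells were higher in KO cells. MYB was 4.74-fold higher (2.24, SE 0.27, adjusted p = 6.8e-07), RBL1 1.62-fold (0.69, SE 0.08, adjusted p = 2.7e-07), MYBL2 1.62-fold (0.69, SE 0.07, adjusted p = 4.3e-08) and FOXM1 1.55-fold (0.63, SE 0.05, adjusted p = 5.9e-09). Of the 10 genes 6 were higher and 2 (RB1 and MYBL1) lower, where 32.7% of all tested genes were higher and 30.4% lower (63.1% in either direction). With limma-trend on log2(RPKM + 1) MYB differed by 0.49 and MYBL1 by -0.45, both called.

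LIN54 was higher by 0.26 (SE 0.08, adjusted p = 0.00954), a call lost without KO Nutlin-3a replicate 1 (0.23, adjusted p = 0.0729). LIN37 was higher by 0.36 (SE 0.13, adjusted p = 0.0253), a call that ended when WT Nutlin-3a replicate 2 was left out (0.16, adjusted p = 0.318) and likewise when replicate 1 of the treated KO cells was left out (0.30, adjusted p = 0.151). Without WT Nutlin-3a replicate 1 the LIN37 difference was 0.59 instead, and without the 3 libraries with 10 or more genes over 5 times their replicate it was 0.64. RBL2 differed by -0.067 (95% interval -0.16 to 0.029, adjusted p = 0.209) and passed without WT Nutlin-3a replicate 1 (-0.11, adjusted p = 0.0413). LIN9 differed by 0.17 (0.0052 to 0.34, adjusted p = 0.0674) and passed without KO Nutlin-3a replicate 2 (0.24, adjusted p = 0.0383). These comparisons use the libraries of the responses above and are no separate evidence.

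The other subunits of the same complexes, and the kinase DYRK1A that starts DREAM assembly by phosphorylating LIN52, were read from a list of 7 partner genes. In WT cells 4 fell and 1 rose with Nutlin-3a, in KO cells 5 fell and 0 rose, and their responses differed for 4. The shares called were 71.4%, 71.4% and 57.1%, against 58.6%, 38.7% and 27.5% of all tested genes, so in WT cells the share was not far from the background. TFDP1, which encodes the DP1 partner of E2F factors, was at 105 RPKM in both WT DMSO libraries, at 51.7 and 49.3 after Nutlin-3a there, and in KO libraries at 42.5 and 42.1 with DMSO and at 32.7 and 33.6 with Nutlin-3a. It fell in WT cells (-1.06, SE 0.05, adjusted p = 4.0e-13) and less in KO cells (-0.38, SE 0.05, adjusted p = 2.7e-06), with an interaction of 0.68 (SE 0.07, adjusted p = 4.8e-07). Under DMSO this chromosome 13 gene was lower in KO cells (-1.38, SE 0.05, adjusted p = 9.8e-15), while under Nutlin-3a its difference of -0.70 was near the chromosome median of -0.78.

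TFDP2, the gene for the DP2 partner, was higher in KO cells under DMSO (0.74, SE 0.05, adjusted p = 6.2e-10), at 19.4 and 20.1 against 11.9 and 10.7 RPKM. It rose in WT cells (0.20, SE 0.05, adjusted p = 0.00319) and fell in KO cells (-0.30, SE 0.05, adjusted p = 0.000130), and the responses differed (-0.50, SE 0.07, adjusted p = 5.7e-05). The call of the rise in WT cells was lost without WT DMSO replicate 2 (0.13, adjusted p = 0.106), and with limma-trend without a filter neither response was called (adjusted p = 0.0701 in WT and 0.0580 in KO cells). The ratio of TFDP1 to TFDP2 in RPKM was 8.81 and 9.84 in WT DMSO libraries, 4.11 and 3.65 after Nutlin-3a there, and from 2.02 to 2.19 in the 4 KO libraries.

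RBBP4, the histone-binding subunit of the core, fell in WT (-0.53, SE 0.05) and less in KO cells (-0.24, SE 0.05), with an interaction of 0.28 (adjusted p = 0.00557) that was not called with limma-trend without a filter (0.31, adjusted p = 0.0505). E2F4, the main E2F of DREAM, fell slightly in WT cells (-0.25, SE 0.05, adjusted p = 0.000104) and was lower in KO cells under DMSO (-0.43, SE 0.05, adjusted p = 1.7e-07). The E2F4 interaction of 0.18 (adjusted p = 0.0491) was lost in 7 of 8 fits that left out 1 library, at adjusted p up to 0.206, and with the DESeq2 Wald test (adjusted p = 0.0790) or without a filter on low counts (adjusted p = 0.0990), and held without WT Nutlin-3a replicate 1 (0.21, adjusted p = 0.00723). LIN52 fell in WT (-0.45, SE 0.11, adjusted p = 0.00235) and KO cells (-0.30, SE 0.11, adjusted p = 0.0355). Leaving out WT Nutlin-3a replicate 1 ended the WT call of LIN52 (-0.25, adjusted p = 0.0788), and its KO call ended without WT DMSO replicate 1 or any 1 of the 4 KO libraries, at adjusted p up to 0.203, and with upper-quartile scaling, the DESeq2 Wald test or limma-trend, at adjusted p from 0.0587 to 0.311. DYRK1A was not called in WT cells (-0.093, 95% interval -0.20 to 0.016) and fell in KO cells (-0.16, SE 0.05, adjusted p = 0.0140), a call lost without KO DMSO replicate 1 or either KO Nutlin-3a library, at adjusted p up to 0.114, and with the DESeq2 Wald test (adjusted p = 0.0651) or limma-trend with a filter (adjusted p = 0.0961 and 0.0953). E2F5 was called in neither response (-0.071 in WT and 0.18 in KO cells, adjusted p = 0.450 and 0.0706).

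Genes that DREAM represses were read from lists of 40 early targets (G1/S genes) and 40 late targets (G2/M genes). E2F sites are typical of the early class and CHR elements of the late class, but no gene was required to hold one. In WT cells all 40 early targets fell, with a median of -2.47, and all 40 late targets fell, with a median of -1.43. Of all tested genes 29.2% fell in WT and 20.6% in KO cells. In KO cells 38 early targets fell and 1 rose (median -1.28), and 40 late targets fell (median -0.84). The responses differed, upwards in KO cells, for 38 of 40 early and 37 of 40 late targets, with medians of 1.08 and 0.58, and 14.2% of all tested genes, with a median of -0.0032, were called in that direction. The responses of FOXM1 (-1.93), RBL1 (-1.84) and MYBL2 (-3.15) in WT cells can be set beside these lists, in which none of the 10 genes is a member. Both lists were chosen with earlier results of these data known.

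The widest fall of the early targets in WT cells was that of the cyclin E2 gene CCNE2. It went from 10.2 and 10.6 to 0.188 and 0.168 RPKM there. In KO cells it went from 7.79 and 8.38 to 2.07 and 2.28 (interaction 3.94, SE 0.21). The helicase genes MCM3 and MCM4 had the smallest interaction p of that list, with differences of 1.84 (SE 0.07, adjusted p = 7.8e-12) and 1.58 (SE 0.07, adjusted p = 2.6e-11). The exception that rose in KO cells was TYMS, the gene for thymidylate synthase (0.16), named because the count was 1. Among late targets AURKB, the gene for a mitotic kinase, fell most in WT cells, from 78.5 and 82.4 to 14.7 and 12.8 RPKM, and from 63.5 and 63.8 to 28.4 and 30.2 in KO cells (interaction 1.40, SE 0.09). CCNA2, the gene for cyclin A2, fell by 2.09 in WT and by 1.05 in KO cells on the log2 scale. CCNE2 had 16 and 13 reads in the WT Nutlin-3a libraries, so the size of its interaction rests on few reads.

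Promoter letters followed the class of target. Of the early targets with a RefSeq window 28 of 34 held an E2F word and 5 a CHR word, and of the late targets 29 of 33 held a CHR word and 5 an E2F word. Over all 27305 genes with a window 9.43% held an E2F word and 27.9% a CHR word. These lists were drawn up from genes known to be regulated in this way, so the shares describe them and test nothing.

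**Figure D5:**
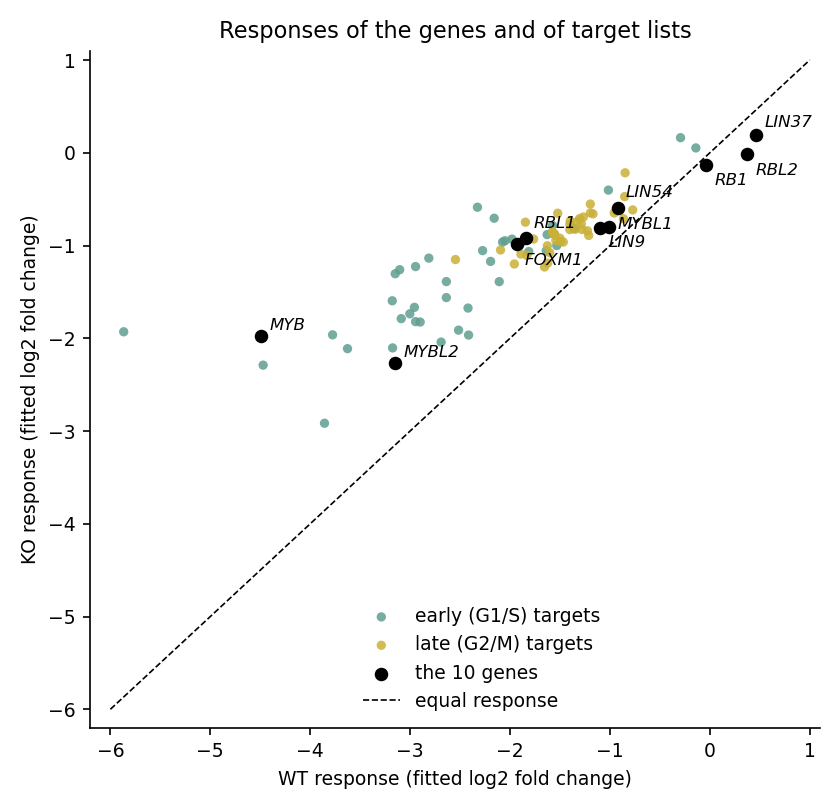
Fitted log2 response to Nutlin-3a in KO cells against that in WT cells, for the 10 genes (black, named), 40 early targets (green) and 40 late targets (yellow), with equal responses on the dashed line. MYBL2 and MYB lie among the early targets. FOXM1 and RBL1 lie where both lists have genes. Examples are the early target POLA1 (-1.98 in WT and -0.93 in KO cells) and the late target BIRC5 (-1.89 and -1.09). LIN9, LIN54 and MYBL1 lie at the level of the late targets with smaller falls.

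In the list of 16 cyclins, CDKs and CDK inhibitors, which set the phosphorylation of the RB family, 6 rose and 7 fell in WT cells, where 29.4% of all tested genes rose and 29.2% fell, and 3 rose and 9 fell in KO cells, where 18.1% rose and 20.6% fell. CDKN1A had the widest rise, by 5.39 (SE 0.06) in WT and 5.12 (SE 0.06) in KO cells, and CCNE2 the widest fall in WT cells. The CDKN1A rise was smaller in KO cells (-0.27, SE 0.07, adjusted p = 0.00942), and under Nutlin-3a its level was lower there (-0.85, SE 0.05, adjusted p = 1.7e-11), at 677 and 649 against 1150 and 1092 RPKM. The CDKN1A interaction was lost without WT DMSO replicate 1 (adjusted p = 0.0573) or KO DMSO replicate 1 (adjusted p = 0.0605).

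The genes with the nearest profiles to 9 of the members over the 8 libraries were ranked by the root mean square distance between log2 CPM profiles, each centred on its own mean, among 10752 genes. For MYB they were E2F1 (0.29), ATAD2 (0.35) and CLSPN (0.38), and for MYBL2 they were ZNF367, CDC6 and EXO1 (all 0.15). For FOXM1 they were H2AFX (0.056), UBE2T (0.062) and RBL1 (0.068), and for RBL1 they were HJURP (0.060), CDCA7 (0.063) and POLA1 (0.066). FOXM1 and RBL1 thus had nearly the same profile, with falls of -1.93 and -1.84 in WT and -0.98 and -0.92 in KO cells. RBL2 was nearest to EIF4B, COPA and FAM160B1, LIN9 to KNSTRN, DPY19L1 and ZNF85, LIN54 to KCTD3, GSTCD and ARHGEF40, LIN37 to USE1, FCGRT and FAM3A, and RB1 to GRAMD1C, APOL6 and LRCH2. The distances describe these libraries, which differ mainly by 2 factors.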

How the data were processed

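Poly(A) RNA of 8 CHP212 libraries, 2 in each of 4 groups, was sequenced from strand-specific TruSeq libraries, per the labels' protocols. The submitters' processing notes name TopHat2 2.1.1, Bowtie2 2.2.9.0, HTSeq 0.8.0 and the build GRCh37 (hg19). The annotation and strandedness used by HTSeq were not given in the sources used here. The authors deposited raw read counts and RPKM for each gene and library. Dividing deposited counts by RPKM gave, for 12992 of 12992 genes checked, a whole-number gene length within 0.001 bases.

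Counts of all 8 libraries were fitted with edgeR 4.0.16 (quasi-likelihood F test, R 4.3.3) as 4 group means, with TMM scaling and filterByExpr, which kept 15879 of 25369 genes. P-values were adjusted over those genes by Benjamini and Hochberg, and a gene was called at an adjusted p under 0.05. Standard errors were derived from this fit, as the absolute log2 fold change divided by the square root of the F statistic. The 95% intervals were built from them with t quantiles. RPKM served for levels between genes, and limma-trend on log2(RPKM + 0.1) for an alternative. The fits were tested on simulated data. The spread of each gene between 2 replicates a group was pooled over the 4 groups and moderated by the spread of the other tested genes. Small p-values thus do not rest on a gene's own replicates alone. Library totals were 28390405 reads or more, but single genes had far fewer. Counting error limits precision where reads are few, as for LIN37, LIN52 and RBL1 (396 and 365 reads in WT Nutlin-3a libraries). Reads were fewer still for MYB under Nutlin-3a, CDKN2A in WT cells (15 to 34) and CCNE2 in WT Nutlin-3a libraries (16 and 13).

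The members, the partner genes and the target lists were chosen with earlier results of these data known. Besides these members and partners, the text names FAM193A and CDKN1A as checks of the labels, the widest called rise and fall in the WT response and the 2 smallest interaction p-values of each list, and the 3 nearest profiles to each member, of which those of MYBL1 are not reported here. Chromosome 13 and its genes, CDKN2A and TYMS were named after their values were seen. Alternatives changed the scaling, filter, test, threshold and libraries.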

Additional observations from a re-analysis of the deposited data

Results flagged for a closer look

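These genes had a response to Nutlin-3a that differed between KO and WT cells by the direct test (edgeR interaction, adjusted p under 0.05), given as KO response minus WT response in log2. Among activators and the pocket gene that fell with Nutlin-3a, the difference was 2.51 for MYB, 0.95 for FOXM1, 0.92 for RBL1 and 0.88 for MYBL2, a smaller fall in KO cells in each case. Of the core genes, LIN54 differed by 0.33 and RBBP4 by 0.28. RBL2, which rose in WT cells, differed by -0.39. TFDP1 differed by 0.68, E2F4 by 0.18 and TFDP2 by -0.50. The calls of LIN54 and E2F4 were lost in most fits that left out 1 library and with the DESeq2 Wald test. That of RBBP4 was lost with limma-trend without a filter. TFDP1 lies on chromosome 13, where most genes were lower in KO cells already under DMSO, and the part of that lower start in its interaction was not tested. The group comparisons behind these differences share their 8 libraries.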

How the results depend on the processing

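The falls of MYBL2, MYB, FOXM1, RBL1, LIN9, LIN54 and MYBL1 in both genotypes, the rise of RBL2 in WT cells, the KO against WT differences of RB1 and MYBL1 and the interactions of MYB, FOXM1, MYBL2, RBL1 and RBL2 kept direction and call in all 18 alternatives that refit genes (17 for the interaction). The MYB responses were -1.65 and -1.02 (WT and KO) with limma-trend on log2(RPKM + 1), which compresses low levels, in place of -4.49 and -1.98, and its interaction was 0.63 in place of 2.51. Without 1 library each (the lone library of that group is assumed to vary like the other groups), ranges that crossed a call or 0 were -0.067 to 0.014 (RB1) and 0.25 to 0.65 (LIN37) for the WT response, -0.15 to -0.10 (RB1) and -0.030 to 0.00088 (RBL2) for the KO response, -0.26 to -0.19 (RBL1), -0.13 to 0.0092 (LIN54) and -0.34 to -0.20 (MYB) for KO against WT under DMSO, -0.11 to -0.033 (RBL2), 0.10 to 0.24 (LIN9), 0.16 to 0.59 (LIN37) and 0.23 to 0.30 (LIN54) under Nutlin-3a, and 0.22 to 0.35 (LIN9) and 0.25 to 0.40 (LIN54) for the interaction. Among partners these were -0.65 to -0.25 and -0.34 to -0.26 (LIN52, WT and KO response), -0.18 to 0.041 and 0.097 to 0.26 (E2F5), 0.13 to 0.30 (TFDP2, WT), -0.18 to -0.14 (DYRK1A, KO), -0.033 to 0.046 and -0.024 to 0.36 (LIN52, KO against WT under DMSO and Nutlin-3a), -0.34 to -0.18 and -0.12 to 0.12 (E2F5, the same), 0.14 to 0.16 (DYRK1A, Nutlin-3a), and -0.030 to 0.35 (LIN52), 0.15 to 0.21 (E2F4) and 0.13 to 0.37 (E2F5) for the interaction.

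With DESeq2 size factors MYB passed for KO against WT under DMSO (-0.29, adjusted p = 0.0491), as in a fit of the 4 DMSO libraries (-0.27, 0.0282), and the LIN9 interaction passed (0.29, 0.0493). With limma-trend at log2(RPKM + 0.1), at + 1, and at + 0.1 without a filter, KO against WT under DMSO was lost for RBL1 (-0.16, -0.14 and -0.16) and MYBL2 (-0.13, -0.12 and -0.13), the LIN54 interaction was lost (0.34, 0.26 and 0.34), LIN9 passed under Nutlin-3a (0.26, 0.22 and 0.26, and 0.21 with upper-quartile scaling), and RBL2 turned sign uncalled in the KO response (0.016, 0.015 and 0.016, with 0.012 under upper-quartile scaling and 0.0020 with 4 libraries) and under Nutlin-3a (0.024, 0.023 and 0.024). The DESeq2 Wald test lost the LIN54 interaction (0.33) and LIN37 under Nutlin-3a (0.34), which limma without a filter (0.46) and the fit of 4 libraries (0.35) also lost, as limma without a filter did LIN37 in the WT response (0.44). Without the 3 libraries with 10 or more genes over 5 times their replicate, an alternative chosen after seeing the data that leaves 3 groups with 1 library each, assumed to vary like the KO DMSO pair, the LIN37 rise was lost (0.24), LIN9 (0.33, interaction) and RBL2 (-0.12, Nutlin-3a) passed, and RB1 (0.032, WT response) and LIN37 (0.027, interaction) turned sign uncalled. Uncalled partner values also turned sign: LIN52 under DMSO was -0.019 with both DESeq2 settings and -0.014 without the 3 libraries, and E2F5 under Nutlin-3a was 0.030 with upper-quartile scaling, 0.090, 0.086 and 0.090 with limma and 0.094 without the 3 libraries. Other lost partner calls stand beside those genes. LIN52 in the WT response was lost with limma without a filter and without the 3 libraries (adjusted p = 0.0657 and 0.0920), E2F5 under DMSO in all 3 limma fits, DYRK1A under Nutlin-3a with the DESeq2 Wald test and 4 libraries, and FAM193A under DMSO with limma without a filter (adjusted p = 0.116). The interaction called 2626 genes with limma without a filter and 2744 at a threshold of 0.01, in place of 4373, and late targets called under DMSO numbered 16 with limma without a filter in place of 26. The cause of these changes was not tested. The labels tie replicate numbers to no shared day or culture, and replicate differences correlated between groups at -0.0226 to 0.232, so the numbers were treated as names. With the replicate number as a block, the WT response of MYB was -4.49, and of the 10 members, the 7 partners, CDKN1A and FAM193A the block changed the call of the E2F4 interaction (adjusted p = 0.0568) and the FAM193A WT response (adjusted p = 0.0181).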
